A study of Mus musculus with 4 samples.

Results

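The 44 genes described here encode glucose transporters, the enzymes of glycolysis and of the pentose phosphate pathway, the lactate and pyruvate step, and regulators and targets of the response to low oxygen. They were taken by symbol from a table of 39179 mouse genes, and each of the 44 was found once. The table holds 4 RNA-seq libraries, titled aorta, that are described as primary aortic smooth muscle cells of mice. The first group is 2 libraries from Sm-Yap/Taz-KO mice (KO), in which Yap1 and Wwtr1, the genes of the transcriptional co-activators YAP and TAZ, are targeted in smooth muscle, and the second is 2 libraries from wild-type mice (WT). Both groups were taken 18 days after tamoxifen injection, so the drug was common to them. The labels name neither the Cre driver, the alleles, the age and sex of the mice, nor whether animals were pooled, and do not tie a library to its own animal. The p-values therefore measure only the spread between these samples, and that spread could be a technical one. As a check of the labels, Yap1 fell 2.01-fold, to 947 and 962 normalized reads in KO, against 1966 and 1877 in WT libraries (limma adjusted p = 0.00802). Wwtr1 had 2848 and 2466 in KO and 3423 and 4016 in WT libraries and missed the threshold of 0.05 (limma adjusted p = 0.0553). The labels do not give the deleted exons, so reads of the exons that remain may be counted in KO.

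Glycolysis splits glucose into pyruvate in the cytosol, and its pace is set mainly at hexokinase and at phosphofructokinase. Pyruvate is then reduced to lactate by lactate dehydrogenase and exported, or enters mitochondria through pyruvate dehydrogenase, which the PDK kinases switch off. The pentose phosphate pathway branches off after hexokinase and yields NADPH and ribose. Many genes of these pathways are induced in low oxygen by HIF-1, whose oxygen-regulated subunit is HIF-1α. Arterial smooth muscle is known for making lactate from glucose even when oxygen is ample.

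Members changed in both directions in KO cells. Of 44 members, 42 had a mean of at least 10 normalized reads and were tested by limma on log2(value + 1), with Benjamini-Hochberg adjustment over all 15058 genes tested. At an adjusted p under 0.05, 7 members rose (Ldha, Slc16a1, Pfkfb3, Pfkfb1, Pgd, Hk3 and Hif1a), 3 fell (Pfkm, Pfkp and Pdk3) and 32 did not pass. The 7 that rose were 16.7% of those tested, against 9.58% of all genes, and the 3 that fell were 7.14%, against 6.70%. In both directions together it was 23.8% of members, against 16.3% of all genes. The median log2 fold change was 0.15 over the members and -0.02 over all genes. All KO values lay above all WT values for 16 of the 42 members, against 30.7% of all genes, and below them for 11, against 32.1%. These 27 members were 64.3% of those tested, close to the 62.8% of all genes without overlap. Aldoc, with 0 and 3 normalized reads in KO and 5 and 8 in WT libraries, and Pgam2, with 8 and 8 in KO and 5 and 6 in WT libraries, were below the filter.

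Most calls needed all 4 libraries, for the members and for all genes alike. A refit without 1 library leaves a single library in that group. In these refits the log2 fold change ran from 0.91 to 1.02 for Ldha, from 1.43 to 2.71 for Slc16a1 and from -1.01 to -0.9 for Pfkm. With all 4 libraries, limma called 0 members and 0 of all genes with no filter on low values or with no intensity trend. At an unadjusted p under 0.05 there were 9 higher and 6 lower members with no filter, and 9 higher and 4 lower with no trend.

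**Figure D1:**
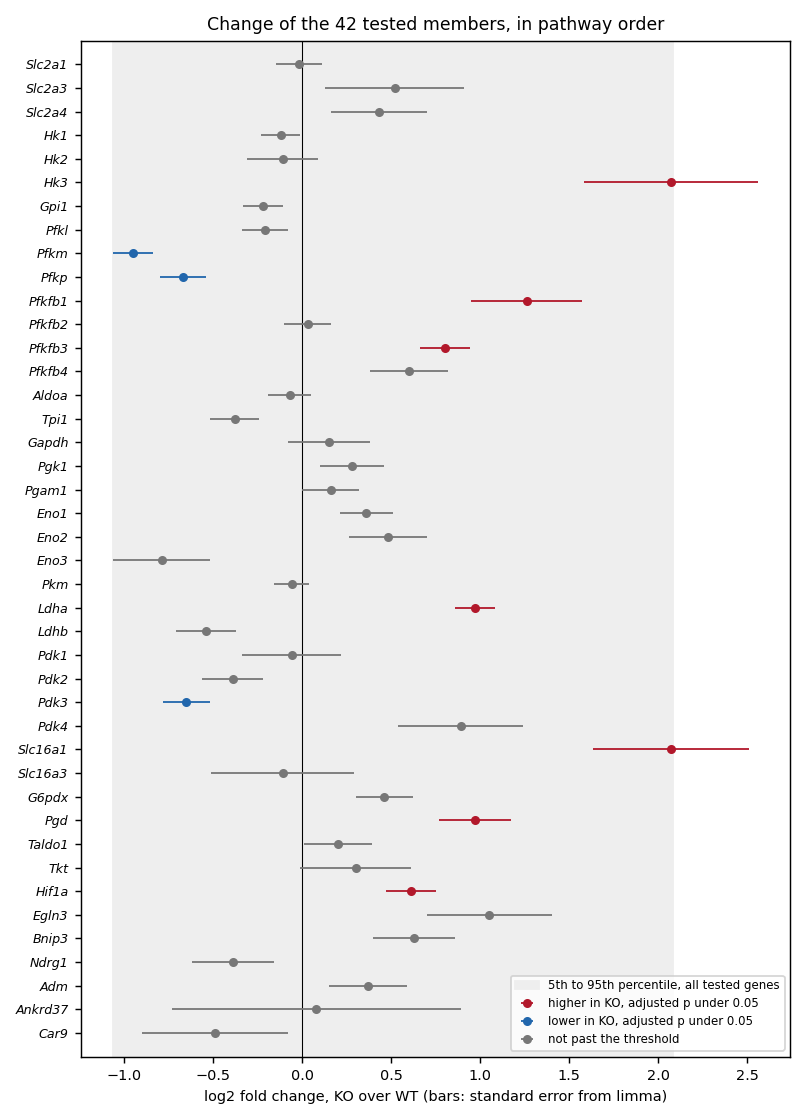
Log2 fold change of KO over WT for the 42 tested members, listed from glucose entry at the top to the hypoxia targets at the bottom, with limma's standard error as bars. The grey band runs from -1.06 to 2.08, the 5th to the 95th percentile of all tested genes; 7 members in red rose and 3 in blue fell.

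The mix of cells was checked with marker lists. Of 10 smooth muscle markers, 9 fell; their summed level was 164362 and 127845 in KO and 455476 and 428397 in WT libraries. Macrophage markers summed to 17821 and 22906 in KO and 5454 and 7576 in WT libraries, with 17 of 20 higher and 1 lower. The lower one, Mertk, had 1794 and 1607 in KO and 3889 and 3274 in WT libraries, a large part of the WT sums. The sums therefore differ less than the median log2 fold change of the list, 2.82. Adipocyte markers summed to 28503 and 25399 in KO and 5503 and 11226 in WT libraries, with 11 of 15 higher. Endothelial markers summed to 15108 and 13573 in KO and 5970 and 8491 in WT libraries, with 6 of 15 higher. Cell cycle genes summed to 3643 and 5497 in KO and 379 and 831 in WT libraries, with 9 of 10 higher. Fibroblast markers summed to 359383 and 356166 in KO and 113713 and 234254 in WT libraries, with 2 of 15 higher, and none of the markers in these lists was at 0 in every library. The part of these cells in the values of the metabolic genes was not tested. Markers of the other cell types were also read in WT libraries. A level given for KO or WT cells is therefore that of all cells in the library, not of smooth muscle cells alone. In bulk RNA, fewer cells of a type and less RNA per cell cannot be told apart.

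**Figure D2:**
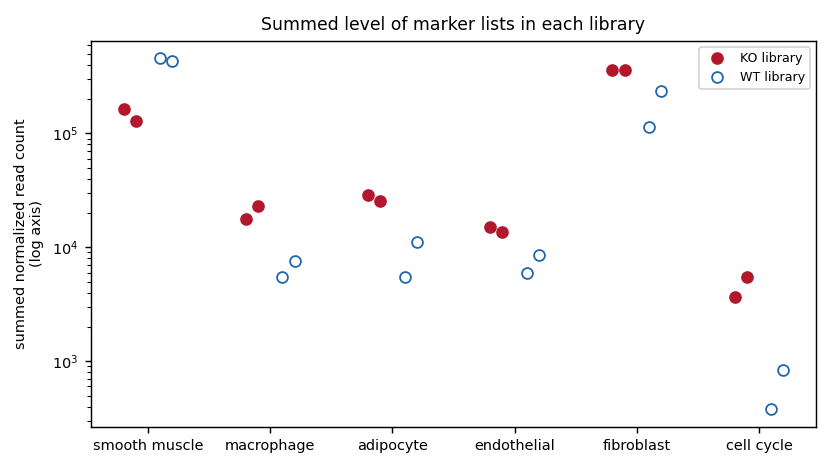
Summed normalized read count of 6 marker lists in each of the 4 libraries, on a log axis. KO libraries (filled) were below WT libraries (open) for smooth muscle markers and above them for the other 5 lists.

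Glucose entry and its first step showed a rise in a single, weakly expressed gene. Slc2a1, which encodes the widely expressed transporter GLUT1, had 545 and 555 normalized reads in KO and 601 and 515 in WT libraries. The groups overlapped, and the 95% interval of its log2 fold change ran from -0.35 to 0.31 (adjusted p = 0.949 by limma). Slc2a4, which encodes the insulin-responsive GLUT4 of muscle and fat, had 488 and 378 in KO and 410 and 246 in WT libraries, and Slc2a3, which encodes GLUT3, had 44 and 70 in KO and 32 and 46 in WT libraries. Neither passed (limma adjusted p = 0.327 and 0.416), and both overlapped between groups.

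Among the hexokinases, Hk1, the broadly expressed form, had 984 and 946 normalized reads in KO and 1042 and 1059 in WT libraries. Hk2, the form of insulin-sensitive tissues, had 808 and 1045 in KO and 1161 and 845 in WT libraries. Their 95% intervals, -0.38 to 0.14 and -0.60 to 0.38 on the log2 scale, both held 0. Hk3, a form known from myeloid cells, had 47 and 105 in KO and 15 and 17 in WT libraries. Its log2 fold change, 2.07 ± 0.49 SE with an adjusted p of 0.0402 by limma, was close to the 95th percentile of all genes, and KO replicate 2 was 2.23 times KO replicate 1. The macrophage markers, 17 of 20 of them higher, moved with Hk3, and their part was not tested. Gpi1, the phosphoglucose isomerase, had 2186 and 1933 in KO and 2466 and 2337 in WT libraries and did not pass (limma adjusted p = 0.222).

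At the phosphofructokinase step, 2 of the 3 enzyme genes fell, while 2 of the 4 genes of its regulators rose. Pfkm, the muscle form (chromosome 15, 98092589 to 98132451, plus strand, GRCm38), had 595 and 609 normalized reads in KO libraries, against 1210 and 1127 in WT libraries. The libraries of a group lay within 1.07-fold of each other and the groups were far apart, a 1.94-fold fall (log2 fold change -0.95 ± 0.11 SE, limma's adjusted p = 0.00934). Pfkp, the platelet form (chromosome 13, 6579768 to 6648777, minus strand), had 2474 and 2008 in KO and 3714 and 3372 in WT libraries, a 1.59-fold fall (log2 fold change -0.67 ± 0.13 SE, limma's adjusted p = 0.0263). Pfkl, the liver form, had 469 and 424 in KO and 518 and 511 in WT libraries; both KO values were the lower ones, but it did not pass (log2 fold change -0.21 ± 0.13 SE, limma's adjusted p = 0.329). Per kilobase of exon, the mean levels in KO cells were 180 for Pfkm, 167 for Pfkp and 66.9 for Pfkl, against 350, 264 and 77.1 normalized reads in WT cells. Exon length is that of all annotated exons of a gene joined, which can exceed that of the transcripts present. The order of genes per kilobase depends on it, and in reads Pfkp was above Pfkm in every library. Smooth muscle markers fell in the KO libraries (9 of 10), and their part in the fall of Pfkm and Pfkp was not tested.

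The bifunctional PFKFB enzymes make and break fructose 2,6-bisphosphate, the strongest activator of phosphofructokinase. Pfkfb3, whose product mainly makes the activator (chromosome 2, 11471433 to 11554077, minus strand), had 2257 and 2812 normalized reads in KO libraries, against 1545 and 1348 in WT libraries. The groups did not overlap, and the rise was 1.75-fold (log2 fold change 0.80 ± 0.14 SE, limma's adjusted p = 0.0203). Pfkfb1, known from liver and skeletal muscle, had 130 and 101 in KO and 40 and 56 in WT libraries, a 2.39-fold increase (log2 fold change 1.26 ± 0.31 SE, limma's adjusted p = 0.0439). The call did not hold on quantile normalization. Pfkfb4 had 133 and 137 in KO and 83 and 95 in WT libraries and did not pass (limma adjusted p = 0.124). Pfkfb2, the heart form, had 449 and 440 in KO and 429 and 441 in WT libraries, with a 95% interval from -0.28 to 0.34. Among the 4 genes, Pfkfb3 had the highest level per kilobase of exon, with 335 normalized reads in KO and 191 in WT cells; Pfkfb1 had 28.8 in KO and 11.9 in WT cells.

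**Figure D3:**
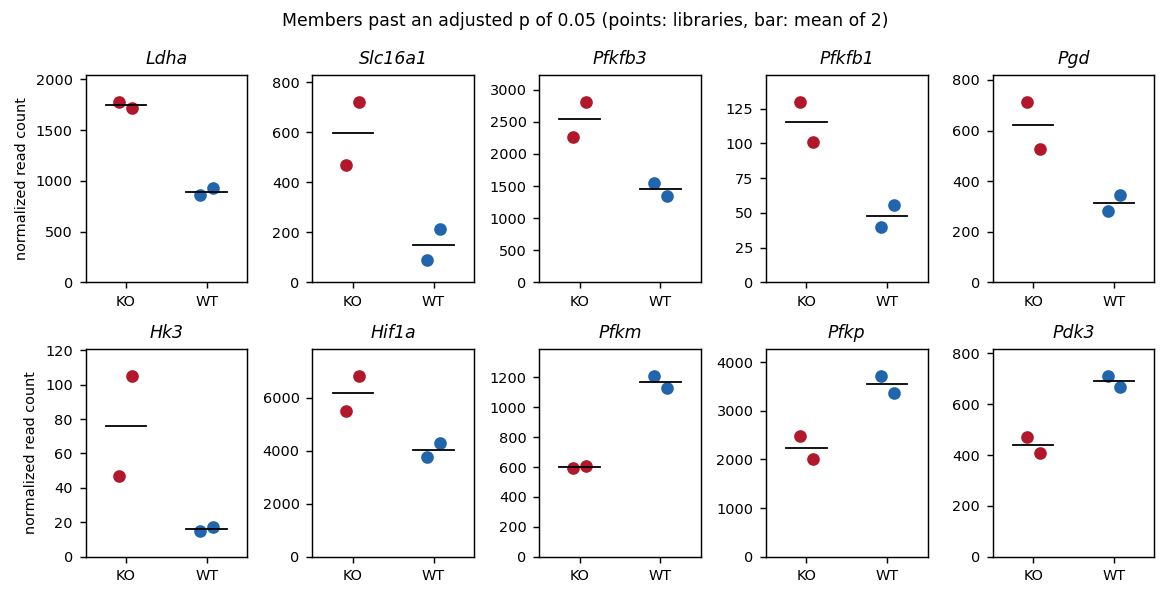
Normalized read counts of the 10 members past an adjusted p of 0.05, with 1 point per library and a bar at the mean of 2. In each panel the KO and WT libraries do not overlap; the WT points of Slc16a1 (88 and 215) and the KO points of Hk3 (47 and 105) lie farthest apart for their level.

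From aldolase to pyruvate kinase, no gene passed the test. Aldoa, which encodes the main muscle aldolase, had 3499 and 2984 normalized reads in KO and 3494 and 3313 in WT libraries, a log2 fold change of -0.07 with a 95% interval from -0.36 to 0.21. Pkm, which encodes both muscle pyruvate kinases M1 and M2 by alternative splicing, had 2846 and 2874 in KO and 3093 and 2885 in WT libraries, with an interval from -0.30 to 0.18. Counts over the whole gene do not tell M1 from M2. Per kilobase of exon, Aldoa had the highest level of the members, with 1114 normalized reads in KO and 1169 in WT cells, and Pkm had 572 in KO and 598 in WT cells.

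Tpi1, the triose phosphate isomerase gene, had 458 and 410 normalized reads in KO and 593 and 539 in WT libraries; the groups did not overlap, but the limma adjusted p was 0.112. Gapdh, the dehydrogenase that follows, had 1042 and 807 in KO and 1019 and 672 in WT libraries. Gapdh is the most uncertain of these counts: the annotation holds 77 other genes that match its transcript over at least 300 bases at 95% identity or more, and reads that fit several places may have been dropped. The copies with deposited values together held 84 and 101 normalized reads in KO and 77 and 167 in WT libraries. Some copies have no deposited values, so their reads are not known. Pgk1 had 269 and 261 in KO and 195 and 244 in WT libraries, and Pgam1 had 716 and 582 in KO and 532 and 629 in WT libraries (limma adjusted p = 0.342 and 0.547). Pgk1 and Bnip3 have 4 such copies each, and Eno1 and Ldha have 3 each. Pgam1, Gpi1, Tpi1, Pkm and Ldhb have 1 each.

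None of the 3 enolase genes passed. Eno1, the general form, had 1288 and 1006 normalized reads in KO and 902 and 872 in WT libraries (log2 fold change 0.36 ± 0.15 SE, limma's adjusted p = 0.154). Eno2, the neuronal form, had 203 and 196 in KO and 123 and 166 in WT libraries (limma adjusted p = 0.192). Eno3, the muscle form, had 52 and 62 in KO and 108 and 91 in WT libraries (log2 fold change -0.79 ± 0.27 SE, limma's adjusted p = 0.103). For each of the 3 the groups did not overlap, as for 62.8% of all genes.

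The lactate step held the smallest p-value of the members. Ldha, which encodes the A subunit of lactate dehydrogenase (chromosome 7, 46841475 to 46855627, plus strand), had 1780 and 1718 normalized reads in KO libraries, against 859 and 930 in WT libraries. The KO values lay within 1.04-fold of each other, and the rise was 1.96-fold (log2 fold change 0.97 ± 0.11 SE, limma's adjusted p = 0.00898). Ldhb, which encodes the B subunit, had 427 and 335 in KO and 585 and 515 in WT libraries, and did not pass (log2 fold change -0.54 ± 0.17 SE, limma's adjusted p = 0.0841). Ldha has 3 near-identical annotated copies. Gm11814 held at most 3 normalized reads in a library. Gm5452 and Gm9247 have no deposited values, so their reads are not known. Per kilobase of exon, Ldha stood at 528 and Ldhb at 243 normalized reads in KO cells, against 270 for Ldha and 350 for Ldhb in WT cells. In reads, Ldha was above Ldhb in every library. Their order per kilobase depends on the joined exon lengths, 3310 bases for Ldha and 1570 for Ldhb.

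Lactate and pyruvate cross the cell membrane through monocarboxylate transporters. Slc16a1, which encodes MCT1 (chromosome 3, 104638668 to 104658462, plus strand), had 470 and 722 normalized reads in KO libraries, against 88 and 215 in WT libraries. Every KO value exceeded every WT value, but WT replicate 2 was 2.44 times WT replicate 1. The rise was 4.21-fold (log2 fold change 2.07 ± 0.44 SE, limma's adjusted p = 0.0298) and did not pass with robust variance estimates. Slc16a3, which encodes MCT4, the exporter of glycolytic cells, had 83 and 187 in KO and 149 and 121 in WT libraries, so the groups overlapped (log2 fold change -0.11, 95% interval from -1.09 to 0.88). Per kilobase of exon, Slc16a1 had a mean of 135 and Slc16a3 of 25.4 normalized reads in KO cells. In WT cells the order differed between libraries: Slc16a1 had 19.9 and 48.6 and Slc16a3 had 28.0 and 22.8 normalized reads per kilobase. The macrophage, adipocyte, endothelial, fibroblast and cell cycle sums were, like Slc16a1, higher in KO. They were also higher in WT replicate 2 than in WT replicate 1, and their part was not tested.

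Of the pyruvate dehydrogenase kinases, Pdk3 fell 1.57-fold, to 471 and 408 normalized reads in KO, against 711 and 669 in WT libraries (log2 fold change -0.65 ± 0.13 SE, limma's adjusted p = 0.0284). Pdk4, known for its induction by fasting and fatty acids, had 1939 and 946 in KO and 606 and 885 in WT libraries. The KO libraries differed 2.05-fold, and it did not pass (log2 fold change 0.89 ± 0.35 SE, limma's adjusted p = 0.147). Pdk2 had 341 and 274 in KO and 431 and 375 in WT libraries (limma adjusted p = 0.179), and Pdk1, a HIF-1 target, had 339 and 193 in KO and 270 and 263 in WT libraries, with a 95% interval from -0.74 to 0.62. Per kilobase of exon, Pdk4 was the highest of the 4 kinase genes in KO cells, with 411 normalized reads, while in WT cells Pdk3 had 269 and Pdk4 had 212. In reads, the order of Pdk3 and Pdk4 differed between the WT libraries.

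In the pentose phosphate pathway, Pgd, which encodes 6-phosphogluconate dehydrogenase, the enzyme that makes NADPH together with ribulose phosphate, rose 1.96-fold. It had 714 and 529 normalized reads in KO and 283 and 345 in WT libraries (log2 fold change 0.97 ± 0.20 SE, limma's adjusted p = 0.0263), and the groups did not overlap. G6pdx, the glucose-6-phosphate dehydrogenase of the first step, had 766 and 596 in KO and 463 and 519 in WT libraries and did not pass (log2 fold change 0.46 ± 0.16 SE, limma's adjusted p = 0.112). The enzymes of the non-oxidative arm overlapped between groups. Taldo1, the transaldolase, had 1089 and 749 in KO and 752 and 826 in WT libraries, and Tkt, the transketolase, had 1822 and 910 in KO and 1023 and 1076 in WT libraries. The KO libraries differed 2.00-fold in Tkt, against 1.05-fold between the WT libraries.

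Among the hypoxia genes, the regulator Hif1a rose and none of the 5 members grouped as hypoxia targets passed. Hif1a (chromosome 12, 73901375 to 73947530, plus strand), which encodes HIF-1α, had 5497 and 6817 normalized reads in KO libraries, against 3744 and 4272 in WT libraries, a 1.53-fold increase (log2 fold change 0.61 ± 0.14 SE, limma's adjusted p = 0.0372). HIF-1α is controlled mainly at the protein level, which was not measured. Egln3, which encodes the prolyl hydroxylase PHD3, had 79 and 98 in KO and 33 and 53 in WT libraries; the groups did not overlap, and it did not pass (log2 fold change 1.05 ± 0.35 SE, limma's adjusted p = 0.0945).

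Bnip3, a mitophagy receptor gene, had 505 and 363 normalized reads in KO and 240 and 317 in WT libraries (limma adjusted p = 0.113). For Bnip3, 22.3% of the exon length is overlapped by a gene on the other strand, whose reads may be shared. Bnip3 also has 4 near-identical annotated copies, some of them without deposited values. Adm, which encodes the vasodilator peptide adrenomedullin, had 229 and 175 in KO and 143 and 167 in WT libraries (limma adjusted p = 0.296). Ndrg1 had 1722 and 1196 in KO and 2215 and 1588 in WT libraries, and Car9, a cell surface carbonic anhydrase gene, had 98 and 196 in KO and 256 and 148 in WT libraries. Ankrd37, at 6 and 27 in KO and 15 and 10 in WT libraries, was too low to judge, with a 95% interval from -1.92 to 2.07. Ndrg1, Car9 and Ankrd37 overlapped between groups. These 5 hypoxia targets thus lay on both sides of 0, from -0.49 (Car9) to 0.63 (Bnip3) on the log2 scale. Genes of glycolysis, many of which HIF-1 also induces, are not among the 5. Of those genes, Ldha, Pfkfb3, Pfkfb1 and Hk3 rose and Pfkm and Pfkp fell.

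**Figure D4:**
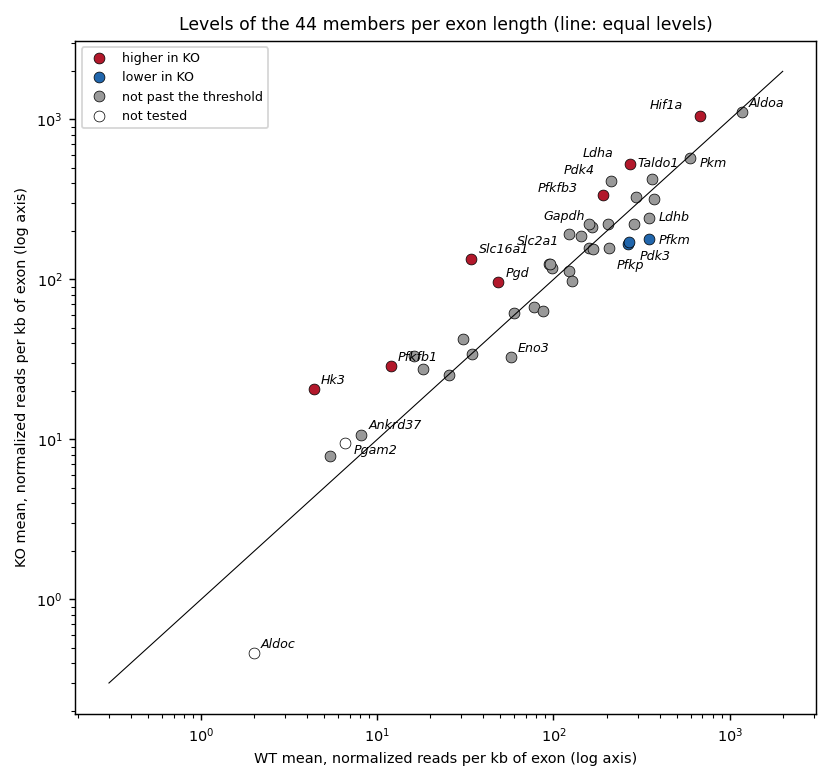
Mean level of each of the 44 members in WT (x axis) and KO cells (y axis), in normalized reads per kilobase of exon, both axes logarithmic, with the line of equal levels. Aldoa (1114 in KO and 1169 in WT) and Hif1a (1044 in KO and 680 in WT) are the highest, and Aldoc (0.46 in KO and 1.99 in WT) the lowest.

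Ratios between alternative genes of a step were compared within each library, with 1 added to each value. They are ratios of reads, not corrected for gene length. Length cancels in the change of a ratio between KO and WT libraries, not in the ratio itself. With 2 libraries against 2, the exact two-sided permutation test cannot give less than 0.333, so none of the 14 ratios can pass and they are given as values. KO and WT libraries did not overlap for 10 of the 14. Among single genes 62.8% did not overlap, and the share over ratios of other genes was not computed. Some genes stand in more than 1 ratio, so the 14 are not independent. Ldha over Ldhb was 4.16 and 5.12 in KO libraries, against 1.47 and 1.80 in WT libraries, a 2.84-fold higher ratio. Slc16a1 over Slc16a3 was 5.61 and 3.85 in KO, against 0.593 and 1.77 in WT libraries.

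Eno1 over Eno3 was 24.3 and 16.0 in KO, against 8.28 and 9.49 in WT libraries. Pfkl over Pfkm was 0.789 and 0.697 in KO, against 0.429 and 0.454 in WT libraries; the liver form was thus higher relative to the muscle form in both KO libraries. Pdk2 over Pdk4 was 0.176 and 0.290 in KO, against 0.712 and 0.424 in WT libraries. Hk1 over Hk2, at 1.22 and 0.905 in KO and 0.898 and 1.25 in WT libraries, overlapped, as did Eno1 over Eno2, Slc2a1 over Slc2a4 and Pfkfb3 over Pfkfb4.

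**Figure D5:**
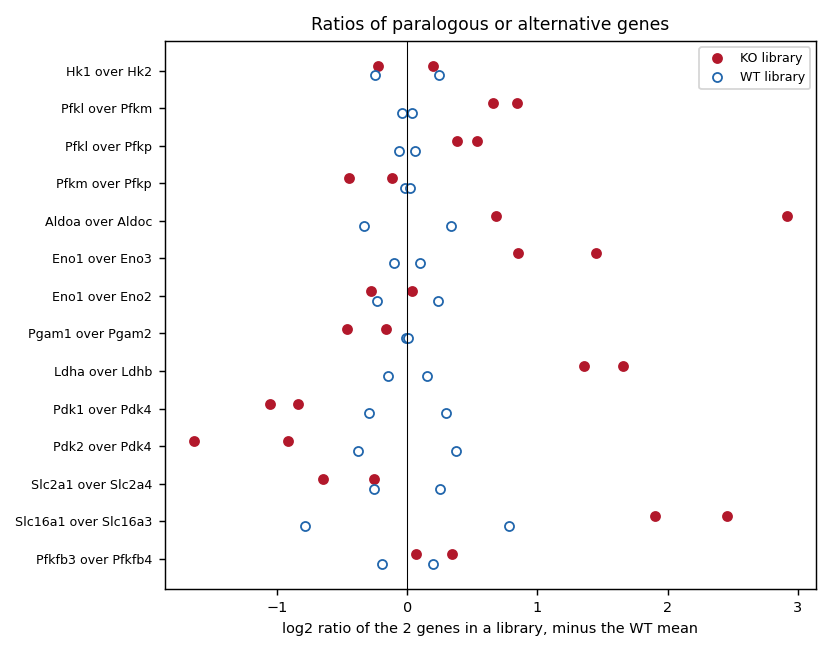
Log2 ratio of the 2 genes named at the left in each library, minus the mean of the WT libraries, for 14 pairs of alternative genes. KO points (filled) lie to the right of the WT points (open) for 6 pairs, to the left for 4 and among them for 4; Aldoa over Aldoc rests on 0 and 3 reads of Aldoc in KO.

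The sequences upstream of the members were read for ACGTG, a core form of the hypoxia response element. It was searched on both strands, as ACGTG and CACGT, in the 250 bases before each start in the RefSeq promoter table (GRCm38.p6), in which 41 of 44 members were found by symbol. The palindrome CACGTG, an E-box, holds both forms. At least 1 start had the core in 20 of the 41 members (48.8%), against 24.7% of the 10454 tested genes in the table and 18.5% of all 27025 genes in it. A gene with several starts has more chances to hold the core. Counted by start, ACGTG or CACGT stood before 24 of the 61 member starts (39.3%), against 16.6% of all 32851 starts. The other form of the core, GCGTG, searched with its reverse complement CACGC, was found for 27 of the 41 members (65.9%), against 48.6% of the tested genes and 30.9% of all genes. ACGTG was present in 5 of the 7 members that rose and in 2 of the 3 that fell, and in 13 of the 29 tested members that did not pass. GGAATG, the core bound by TEAD factors, the DNA-binding partners of YAP and TAZ, was searched with its reverse complement CATTCC and was found for 6 of the 41 members (14.6%), against 13.2% of the tested genes; it was chosen after the values were seen. A match is a run of letters, not a shown binding site, and which start was used in these cells was not measured.

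The following 250 bases lie before the most upstream RefSeq start of 4 members that rose and hold the core, and of Pfkm, which holds it and fell, on GRCm38.p6, 5′ to 3′ along the gene, with ACGTG or CACGT in capitals. Ldha is from chr7:46845554-46845803 (plus strand), Slc16a1 from chr3:104638414-104638663 (plus), Hif1a from chr12:73907617-73907866 (plus), Pfkfb3 from chr2:11553930-11554179 (minus) and Pfkm from chr15:98092339-98092588 (plus).
Ldha: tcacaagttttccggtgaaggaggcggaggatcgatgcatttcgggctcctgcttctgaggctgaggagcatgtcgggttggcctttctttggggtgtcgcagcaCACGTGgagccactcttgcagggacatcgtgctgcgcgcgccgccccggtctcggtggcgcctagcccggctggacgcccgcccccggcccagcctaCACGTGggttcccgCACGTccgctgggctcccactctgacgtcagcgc
Slc16a1: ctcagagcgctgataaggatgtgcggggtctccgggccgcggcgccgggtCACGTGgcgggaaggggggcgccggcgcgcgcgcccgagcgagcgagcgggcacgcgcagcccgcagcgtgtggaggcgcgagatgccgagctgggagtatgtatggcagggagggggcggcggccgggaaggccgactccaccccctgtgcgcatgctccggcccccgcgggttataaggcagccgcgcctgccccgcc
Hif1a: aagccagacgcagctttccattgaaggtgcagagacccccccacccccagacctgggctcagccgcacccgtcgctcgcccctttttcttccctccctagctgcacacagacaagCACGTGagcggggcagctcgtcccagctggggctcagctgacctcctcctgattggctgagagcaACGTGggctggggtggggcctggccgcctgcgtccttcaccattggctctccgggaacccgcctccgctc
Pfkfb3: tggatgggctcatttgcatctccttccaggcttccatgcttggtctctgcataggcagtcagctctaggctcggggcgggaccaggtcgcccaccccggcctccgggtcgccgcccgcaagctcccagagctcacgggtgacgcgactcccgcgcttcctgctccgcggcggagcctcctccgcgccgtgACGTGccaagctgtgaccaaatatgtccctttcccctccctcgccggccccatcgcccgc
Pfkm: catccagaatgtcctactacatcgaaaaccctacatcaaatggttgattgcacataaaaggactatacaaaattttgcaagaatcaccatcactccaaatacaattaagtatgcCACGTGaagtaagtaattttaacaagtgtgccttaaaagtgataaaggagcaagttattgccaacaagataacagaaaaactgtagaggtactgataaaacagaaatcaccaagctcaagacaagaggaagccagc
Ldha has the core at 3 places, of which 2 are E-boxes. In the printed sequences of Slc16a1 and Pfkm the single place is an E-box, so the same letters stand before a gene that rose and a gene that fell. Pfkm has other starts: the bases chr15:98108221-98108470 hold CACGT outside an E-box, and further Pfkm starts hold no core. Hk3, which also rose and holds the core, is not printed.

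Genes of the neighbouring pathways were counted from lists that hold no member. Of 19 tested genes of glycolysis, glucose entry and gluconeogenesis outside the 44, 1 rose and 1 fell (median -0.32 on the log2 scale, against -0.02 over all genes). Slc16a7, which encodes the pyruvate transporter MCT2, fell to 653 and 626 normalized reads in KO, against 1767 and 1460 in WT libraries (log2 fold change -1.33 ± 0.13 SE, limma's adjusted p = 0.00789). Pck1, the gluconeogenic carboxykinase gene that also stands among the adipocyte markers, rose to 3916 and 3492 in KO, against 284 and 986 in WT libraries (log2 fold change 2.80 ± 0.53 SE).

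Of 25 genes of glycogen and hexosamine metabolism, 3 rose and 4 fell (median 0.08). Of the 4 that fell, the muscle glycogen phosphorylase gene Pygm had 720 and 509 normalized reads in KO and 1660 and 1327 in WT libraries (log2 fold change -1.29 ± 0.20 SE). The brain form Pygb had a log2 fold change of -0.76, Phkg1, the gene of a catalytic subunit of phosphorylase kinase, had one of -1.27, and Ppp1r3d, which encodes a glycogen-targeting phosphatase subunit, had 113 and 92 in KO and 219 and 193 normalized reads in WT libraries. The glycogen synthase gene Gys1, which rose and was named after its values were seen, had one of 0.67. The other genes that rose belong to the hexosamine branch, which makes a sugar donor for hyaluronan and glycoproteins. Gfpt2 had 1209 and 1480 in KO and 210 and 496 in WT libraries (log2 fold change 2.05 ± 0.38 SE), and Uap1 had 1584 and 2199 in KO and 682 and 843 in WT libraries (1.30 ± 0.19 SE).

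Of 10 tested pentose phosphate genes outside the members, 1 rose and none fell: H6pd, which encodes the glucose-6-phosphate dehydrogenase of the endoplasmic reticulum, had 2548 and 2592 normalized reads in KO and 1615 and 1760 in WT libraries (log2 fold change 0.61 ± 0.10 SE, limma's adjusted p = 0.0175). Of 27 genes of mitochondrial pyruvate entry and the citric acid cycle, none rose and 3 fell (median 0.06). These were Idh2 (log2 fold change -0.64), the NADP-dependent isocitrate dehydrogenase, Suclg2 (-0.99), a subunit of succinyl-CoA ligase, and Pdp2 (-0.93), a phosphatase that reactivates pyruvate dehydrogenase. Pdp2 had 357 and 314 in KO and 732 and 558 in WT libraries, so both this phosphatase gene and the opposing kinase gene Pdk3 fell.

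Of 43 other hypoxia regulators and targets, 7 rose and 5 fell, with a median of 0.00. Bhlhe40, a repressor gene, had 901 and 1372 normalized reads in KO and 324 and 319 in WT libraries (log2 fold change 1.79 ± 0.21 SE, limma's adjusted p = 0.00942). The collagen lysyl hydroxylase genes Plod2 and Plod1 had log2 fold changes of 1.22 and 0.71, and Hmox1, the heme oxygenase gene, had one of 2.95. Anln, which encodes the actin-binding protein anillin, fell to 702 and 749 in KO, against 2133 and 1796 in WT libraries (-1.43 ± 0.13 SE). Many of these genes answer to signals other than low oxygen as well.

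Of 22 genes that carry insulin and AMPK input to glucose uptake, 3 rose and 4 fell (median -0.06). Irs2, an insulin receptor substrate gene, fell to 345 and 346 normalized reads in KO, against 904 and 897 in WT libraries (log2 fold change -1.38 ± 0.12 SE, limma's adjusted p = 0.00599). Prkaa2, which encodes a catalytic subunit of AMPK, had a log2 fold change of -1.03 and Igf1r, the IGF-1 receptor gene, one of -0.67. Tbc1d4, which encodes a regulator of GLUT4 traffic, rose to 448 and 379 in KO, against 102 and 139 in WT libraries (1.78 ± 0.22 SE). Trarg1 (Tusc5 in the table), another gene of GLUT4 traffic known from fat, had a log2 fold change of 1.60, and Mlxipl, the gene of the glucose-sensing factor ChREBP, had one of 1.11. Adipocyte markers (11 of 15 higher) moved with Tbc1d4, Trarg1, Mlxipl and Pck1, and their part was not tested.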

How the data were processed

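Per the labels' protocols, RNA was treated with DNase, ribosomal RNA was removed, and a strand-marking library kit was used. FastQC, STAR 2.5.2b, featureCounts 1.5.1 of Subread, DESeq2 1.14.1 and the mm10/GRCm38 build were used by the authors, per the submitters' processing notes, which give no roles. Which gene annotation, strand option and filters went into the counting is not given in the sources used here. The deposited values are a score, normalized read counts per gene that the authors rounded to whole numbers: 11 of the whole numbers from 1 to 100 never occur in either KO column and 0 are missing in the WT columns, as division by size factors and rounding give. They sum to 13861333 and 13279332 in KO and 14235444 and 14519178 in WT libraries. Since they are not raw counts, no count model was used.

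Values were transformed to log2(value + 1), a scale that understates changes of low genes. Genes with a mean of at least 10 were fitted in limma 3.58.1 (R 4.3.3), with group as the term and an intensity trend (3.96 prior and 2 residual degrees of freedom), two-sided, with Benjamini-Hochberg adjustment. The 2 libraries a group limit precision. The script was tested on simulated data. Exon lengths, overlaps and near-identical copies come from GENCODE M21 (GRCm38) and its transcripts. The exon length of a gene is the union of its exons over all annotated transcripts.

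The members and lists were chosen with earlier results of these data known, so they are no independent support. The rule for named genes takes each member past the threshold in the fit or under an alternative with all 4 libraries, the highest member of each role, and up to 6 genes of each other list by smallest p; other members are given for completeness. One gene that the rule names is not reported here. Schwann, lymphocyte, erythroid and striated muscle markers were also summed: 8842 and 8452, 66 and 98, 131 and 132, and 2605 and 1287 normalized reads in KO, against 12056 and 12753, 20 and 19, 85 and 140, and 1852 and 2886 in WT libraries.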

Additional observations from a re-analysis of the deposited data

How the results depend on the processing

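The counts of 7 higher and 3 lower members, and of 1443 higher and 1009 lower genes in all, stayed within 1.5 times under another filter (a mean of at least 50, where Hk3 is not tested), other pseudocounts, robust variances and the 3 other scalings, with 6 or 7 higher and 3 lower members. With no filter on low values, limma called 0 members and 0 genes in either direction (2812 genes higher and 2660 lower at an unadjusted p under 0.05), and with no intensity trend also 0 and 0 (2394 and 1880). Leaving out 1 library gave from 0 to 2 higher and 0 to 0 lower members, and from 0 to 587 higher and 0 to 153 lower genes in all; the calls remained in part only without WT replicate 2. Fewer samples leave less residual information, and the 10 called members kept their direction in each of these refits. The labels number the libraries 1 and 2 in both groups but do not say that a number marks a shared animal or day; same-numbered deviations correlated at 0.118 over 15058 genes. With the replicate block, 7 members were higher and 4 lower, as Ldhb also passed (adjusted p = 0.0472), and 1823 and 1213 genes in all. The median of all genes moved from -0.02 to at most -0.1 under quantile normalization and 0.06 at the same total. Members with a mean under 50 normalized reads in a group (Ankrd37, Aldoc and Pgam2 in both, and Slc2a3, Hk3, Egln3 and Pfkfb1 in WT cells) are limited by depth.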
